A study of Vulpes lagopus with 12 samples.

Results

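Fox arrays TO_143, TO_144 and TO_1B are 3 of the 12 arrays of a study of Arctic fox blood, and they stood apart from the 8 other fox arrays, TO_121 to TO_125 and TO_132 to TO_134. They were chosen by a control on the array itself. Arrays are called here by the first part of their titles, such as TO_143. On the GAPDH control of the set named Cfa, the signal at the 3′ end of the transcript minus the signal at its middle was below 1.5 in these 3 arrays and above 2 in the 8. The canine control array stayed out. Since the split was chosen from measured values, every comparison of the 3 with the 8 below is a description and carries no test.

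Blood of Arctic foxes (Vulpes lagopus), a small wild canid of the far north, was collected in PAXgene tubes, which fix RNA at sampling. A kit made for these tubes served to extract the RNA, and a core facility labelled it with biotin and hybridised it to the Affymetrix Canine Genome 2.0 array, whose probes were designed on the dog. The design statement names polychlorinated biphenyls, which are persistent industrial pollutants, and mercury as what fox blood cells were examined for. The labels give the same species, tissue and protocol for all 11 fox arrays and no exposure, age, sex, site or treatment for any of them. They do not say what the numbers in the titles mean, and they do not say that the 11 samples came from 11 animals. Any p-value below therefore measures the spread between these samples, which may be technical.

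Each array carries control probe sets that follow the steps of the assay. Labelling for this type of array starts from the poly(A) tail, so a transcript that is shortened, or copied over a shorter stretch, loses signal from its 5′ end first. GAPDH, a glycolytic enzyme, beta-actin and the elongation factor EF1a are probed at their 3′ end, middle and 5′ end, some of them by more than 1 set. Poly(A) spikes are bacterial transcripts (dap, lys, phe and thr) added to the RNA before labelling, and hybridisation spikes (bioB, bioC, bioD and cre) are already labelled when they are added. Blood RNA itself comes from neutrophils, monocytes, lymphocytes, platelets and the reticulocytes that still carry haemoglobin transcripts. In such bulk samples, fewer cells of a type and less RNA per cell cannot be told apart. Markers of blood were present on all 11 fox arrays: ALAS2, of red cell precursors, stood at 10.89 or higher, and CYBA, of the phagocyte oxidase, at 12.96 or higher.

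The 8 arrays formed a narrow band on the GAPDH difference that chose the split. On the log2 scale the value was 2.88 on array TO_121, 3.19 on TO_122, 2.82 on TO_123, 3.02 on TO_124, 2.62 on TO_125, 2.56 on TO_132, 2.90 on TO_133 and 2.69 on TO_134. It was 0.54 on array TO_143, 0.42 on TO_144 and 1.08 on TO_1B. The arrays nearest to the thresholds were thus TO_1B from below and TO_132 from above, and no array lay between them.

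The GAPDH values at single positions show where the 3 arrays differed. The middle of GAPDH gave 13.74, 13.80 and 13.04 on arrays TO_143, TO_144 and TO_1B, and between 9.64 and 11.05 on the 8. The 3′ end gave 14.28, 14.23 and 14.119, and between 12.22 and 14.117 on the 8, with array TO_122 the brightest of them. The 5′ end gave 8.68, 8.59 and 8.65, inside the range of the 8 (8.50 to 9.57). So the arrays were separated widely by the signal at the middle, barely by that at the 3′ end and not by that at the 5′ end. The 3′ minus 5′ difference was larger on the 3 arrays (5.60, 5.64 and 5.47) than on any of the 8 (2.65 to 5.16). The second GAPDH control, of the set named Cf, was higher on the 3 arrays at every position. Its 5′ end gave 14.20, 14.26 and 13.08 against 8.81 to 10.17, and its middle 14.40, 14.49 and 13.76 against 10.16 to 11.91. Its 3′ end gave 13.44, 13.77 and 13.16 against 9.73 to 11.49. Its 3′ minus 5′ difference was smaller on the 3 arrays (−0.76, −0.49 and 0.08) than on the 8 (0.64 to 1.72), the other way from the first control. Its 3′ minus middle difference overlapped between the sets (−0.96, −0.72 and −0.60, and −0.77 to −0.28).

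Beta-actin and EF1a repeated only part of this. One of the beta-actin controls had a 3′ minus middle difference of 0.16, 0.16 and 0.26 on arrays TO_143, TO_144 and TO_1B, and between 2.14 and 5.21 on the 8. Its middle stood at 13.57, 14.34 and 13.40, against 8.60 to 9.16 on the 8. Its 5′ end stood at 8.86, 9.10 and 6.73, against 4.996 to 5.45. A further 5′ probe set of this control overlapped, at 13.20, 12.65 and 12.89 against 12.94 to 13.36. The other beta-actin control did not separate the arrays by its 3′ minus middle difference (4.54, 4.40 and 5.11, and 3.84 to 5.78), although its middle was higher in the 3 (9.93, 10.15 and 9.47, against 7.996 to 8.27). Its 3′ end (14.47, 14.55 and 14.58, against 11.995 to 13.88) and its 5′ end (9.70, 9.83 and 8.18, against 6.92 to 7.40) were higher too. For EF1a the 3′ minus middle difference overlapped, at 3.06, 3.07 and 3.73 against 2.41 to 3.43. The 3′ end of EF1a stood at 14.63, 14.68 and 14.57 on the 3 arrays, above all of the 8 (10.48 to 11.83). Its middle was also above the 8, at 11.57, 11.62 and 10.84 against 7.97 to 8.60, while its 5′ end overlapped. Thus 2 of the 5 controls separated the 3 arrays from the 8 by their 3′ minus middle difference, among them the one that chose the split.

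The poly(A) spikes, which are not fox RNA, were also brighter on arrays TO_143, TO_144 and TO_1B. Of their probe sets, 12 of 12 at the 5′ end, 12 of 12 at the middle and 8 of 12 at the 3′ end lay above all of the 8 arrays, and 0 lay below. The mean over the middle probe sets was 6.64 on array TO_121, 7.54 on TO_122, 7.24 on TO_123, 7.85 on TO_124, 7.30 on TO_125, 7.27 on TO_132, 8.06 on TO_133 and 8.51 on TO_134. It was 9.75 on array TO_143, 9.95 on TO_144 and 10.28 on TO_1B. The mean at the 5′ end was 6.75, 6.90 and 7.13 on the 3 arrays, against 5.37 to 5.71 on the 8. Within the 3, array TO_1B had the brightest spikes and the dimmest GAPDH middle. The spikes' 3′ minus middle difference was smaller on the 3 arrays, at 1.10, 1.26 and 1.30 against 1.35 to 2.20. Their 3′ minus 5′ difference overlapped, at 4.10, 4.31 and 4.46 against 2.49 to 4.93. These spikes report on labelling and on how much spike was added per amount of RNA. Their level moved with the split, and their part in the differences between the 3 and the 8 was not tested.

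**Figure D1:**
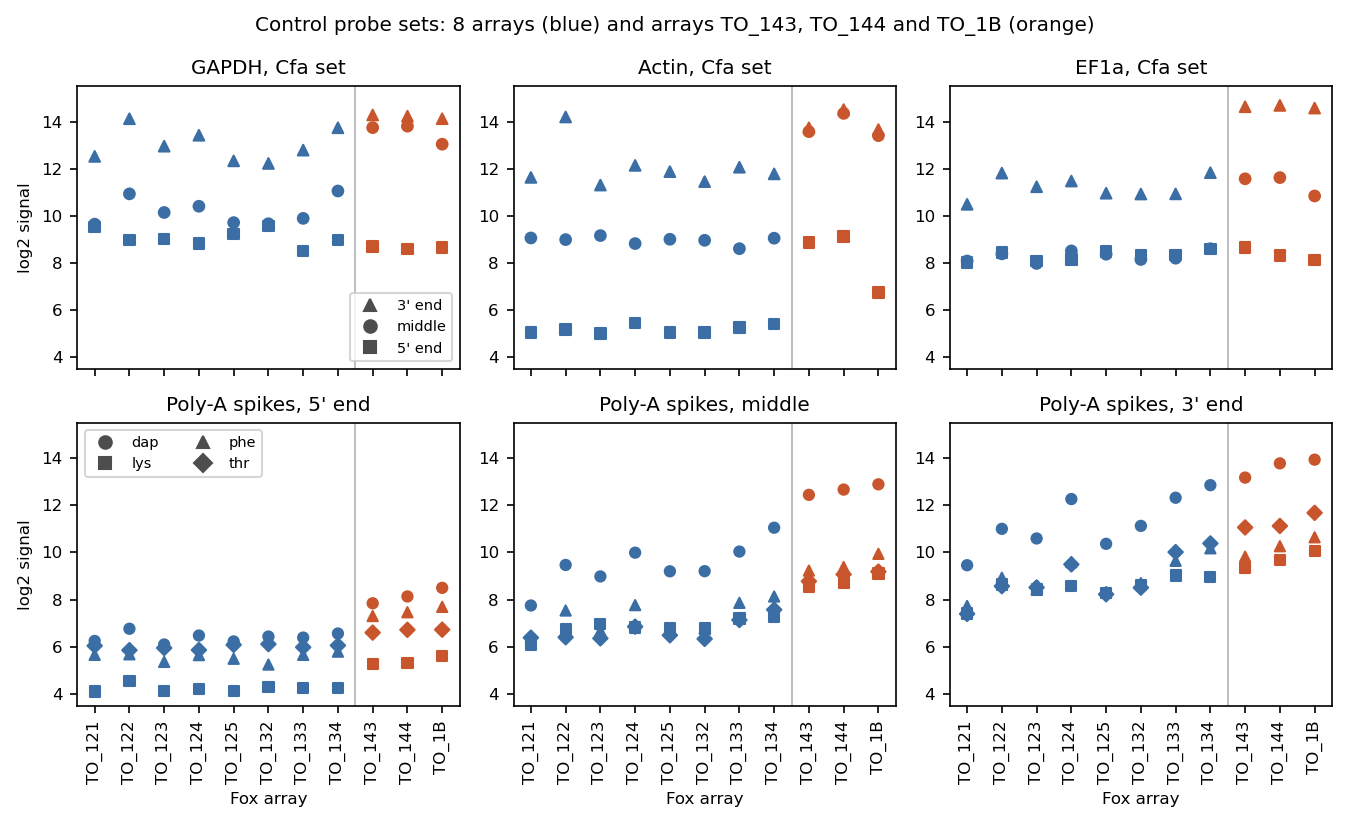
Control probe sets by fox array (x axis) in log2 signal (y axis), with the 8 arrays in blue and arrays TO_143, TO_144 and TO_1B in orange. The upper panels show 3′ end (triangles), middle (circles) and 5′ end (squares) of GAPDH, actin and EF1a, and the lower panels the means of the dap, lys, phe and thr spikes at each position; the GAPDH middle stands between 13.04 and 13.80 in the 3 arrays and at 11.05 or lower in the 8.

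The hybridisation spikes did not separate the arrays. On average over their probe sets bioB, bioC, bioD and cre overlapped between the sets, and 2 of 9 bioB probe sets and 0 of 6 each of bioC, bioD and cre separated them, both lower on the 3. Array TO_122 stood above the other 7 of the 8 for these spikes (12.22 for bioB and 13.54 for bioC). Control probe sets of the Tag and Trpn kind, which should find no fox target, averaged 5.40, 5.36 and 5.32 on the 3 arrays and 5.51 to 5.68 on the 8. The lower quartile over all probe sets was also lower on the 3, at 6.03, 5.98 and 6.02 against 6.09 to 6.13. All these are signals after processing, so the raw background of the arrays was not tested.

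Over all probe sets the 3 arrays had a wider spread of values around a similar centre. Array medians were 7.12, 7.06 and 7.09 on arrays TO_143, TO_144 and TO_1B and 7.10 to 7.17 on the 8. The SD over probe sets was 1.95, 2.02 and 1.93, against 1.60 to 1.79, and the 99th percentile was 13.47, 13.71 and 13.34, against 11.66 to 12.88. Across probe sets, which are not independent replicates, arrays correlated at 0.980 to 0.985 within the 3, at 0.957 to 0.990 within the 8, and at 0.900 to 0.968 between the sets. The first principal component of the 11 arrays held 64.1% of the variance and placed the 3 at 92.4, 114.7 and 79.6, and the 8 between −67.5 (array TO_121) and 1.6 (array TO_134).

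A probe set or gene is counted below as separated where all 3 arrays lay above, or all 3 below, all 8 arrays. The gap is the distance between the nearest arrays of the sets, and the difference is the mean of the 3 minus the mean of the 8, both in log2. Of 42924 probe sets, 5427 (12.6%) were higher on all 3 arrays and 6263 (14.6%) were lower. Of 15115 genes, each read from its brightest probe set by fox mean, 2132 (14.1%) were higher and 2223 (14.7%) were lower. Among the 7557 genes brighter than the median gene, 1710 (22.6%) were higher and 826 (10.9%) lower. The balance of the directions moved with the scaling and with the choice of probe sets. Averaging all probe sets of each gene gave 2361 higher genes, 1796 of them among the 2132, and 2833 lower genes. After quantile normalization again 1353 genes were higher and 2710 were lower. Centring each array on its median gave 2323 higher and 1618 lower genes, and 5958 higher and 4394 lower probe sets. The rule used these same arrays, so nothing is read from these shares beyond their being the background for the gene groups below.

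The higher and lower genes were about as many but not alike in size. The median gap was 0.36 for the higher genes and 0.09 for the lower ones. A gap of at least 1 was found for 283 higher genes and 1 lower gene, and the widest gaps were 3.14 and 1.07. Differences ran from −3.69 to 4.64, with a median of −0.10 over all genes. Large separations therefore lay almost wholly on the higher side, and most lower genes missed the range of the 8 by little.

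The balance also differed with signal level, taken as the mean over the 11 arrays, so that a probe set high on the 3 arrays enters a brighter group through them. With probe sets in 10 equal groups by their mean, 3.21% of the dimmest group were higher on all 3 arrays and 12.9% lower. In the brightest group, 36.8% were higher and 4.19% lower, and the median difference was 0.79. Since most blood cell genes named below are bright, their groups are to be read against the brighter genes (22.6% higher, 10.9% lower) as well as against all genes.

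**Figure D2:**
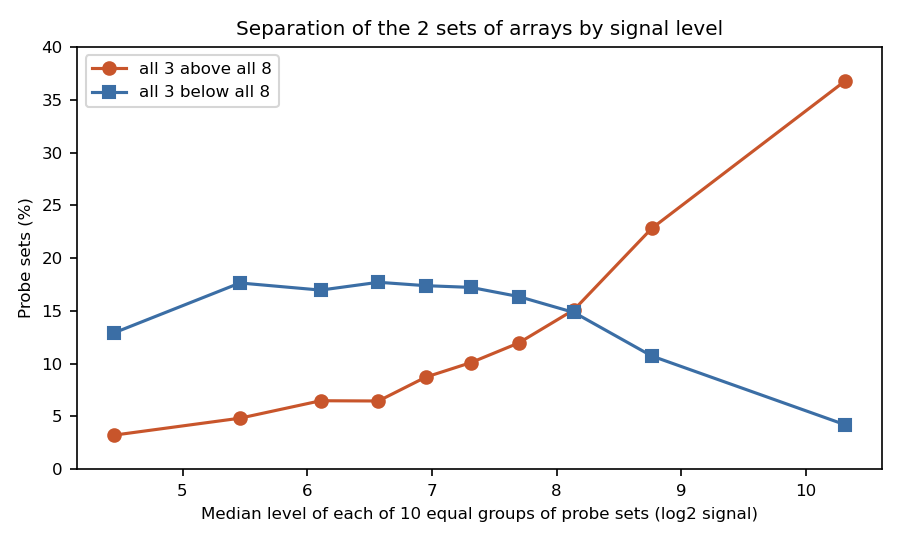
Share of probe sets with arrays TO_143, TO_144 and TO_1B all above (orange circles) or all below (blue squares) the 8 other fox arrays (y axis, percent), in 10 equal groups of probe sets ordered by mean, each at its median level (x axis, log2 signal). The share above goes from 3.21% in the dimmest group to 36.8% in the brightest, and the share below is 4.19% there.

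The 15 named genes with the widest gap on the higher side had differences between 3.003 and 4.64. DLA88, a class I molecule of the dog that presents peptides to T cells, lay between 6.93 and 8.31 in the 8 arrays (median 7.55). It stood at 12.77 on array TO_143, 12.42 on TO_144 and 11.33 on TO_1B, so its difference was 4.64. Its other probe set was separated the same way but by 0.30 only. That probe set was dim, at 4.08, 4.10 and 4.17 on the 3 arrays, where the lowest value of the 11 arrays is 3.23. ADGRE3, an adhesion receptor of myeloid cells, lay between 7.72 and 9.75 (median 9.07) and at 13.82, 13.49 and 12.56. CD37, a tetraspanin of leukocyte membranes, lay between 7.09 and 7.99 (median 7.32) and at 12.58, 12.26 and 10.56. In these 3 genes array TO_1B was the lowest of the 3 and still at least 2.57 above the highest of the 8.

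Genes of innate immune cells among them included CFD, complement factor D, which lay between 8.91 and 10.17 (median 9.41) and at 13.56, 13.71 and 12.86. TREM1, an activating receptor of neutrophils and monocytes, lay between 7.57 and 8.44 (median 8.12) and at 11.26, 11.05 and 10.87. CORO1A, an actin-binding protein of leukocytes, lay between 9.67 and 11.32 (median 10.11) and at 14.26, 14.60 and 13.75. All 3 arrays were close to each other in TREM1, with an SD of 0.20 (n = 3), while the 8 had an SD of 0.30 (n = 8).

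Genes that every cell type uses had gaps as wide. ATP6V0B, a subunit of the proton pump that acidifies lysosomes, lay between 8.88 and 10.31 (median 9.79) and at 13.81, 14.07 and 13.45, the widest gap of all named genes (3.14). RPN2, of the enzyme that glycosylates proteins in the endoplasmic reticulum, lay between 7.37 and 8.62 (median 8.02) and at 11.83, 11.92 and 11.75, with all 4 of its probe sets separated upward. ARF4, a small GTPase of Golgi transport, lay between 6.97 and 8.26 (median 7.49) and at 10.58, 11.12 and 10.77. HNRNPM, which binds pre-mRNA, lay between 7.21 and 8.10 (median 7.49) and at 10.63, 11.41 and 10.42.

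The remaining 5 of these genes encode ribosomal proteins. RPL13A lay between 9.03 and 10.76 in the 8 arrays (median 10.12) and at 13.67, 13.50 and 13.32. RPS9 lay between 10.06 and 12.08 (median 11.34) and at 14.67, 14.74 and 14.38. RPL28, RPS15 and RPL14 had differences of 3.15, 3.33 and 3.06. Of the 15 genes, 9 had several probe sets, and none of these had a probe set separated the other way. In 12 of the 15, counting those with 1 probe set, every probe set was separated upward. Other probe sets of HNRNPM (differences of −0.07 and 0.84), RPL28 (0.75) and ADGRE3 (0.18) overlapped.

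On the lower side the 15 named genes had gaps between 0.53 and 1.07, and many did not keep together over their probe sets. ANGPT2, a ligand of the vascular receptor TIE2, lay between 10.07 and 11.18 in the 8 arrays (median 10.29) and at 8.73 on array TO_143, 8.999 on TO_144 and 8.80 on TO_1B. TLX2, a homeobox factor of neural crest cells, lay between 10.72 and 12.43 (median 11.49) and at 9.79, 9.30 and 10.14. SLC39A8, an importer of zinc and other metals, lay between 9.26 and 10.51 (median 9.74) and at 8.67, 8.66 and 8.50. The 3 arrays were close to each other in SLC39A8, with an SD of 0.10 (n = 3) against 0.52 (n = 8) in the 8.

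HCFC1, a chromatin-bound cofactor of transcription, had the largest difference among the lower named genes (−2.79), and the 8 arrays themselves fell into separate levels. It stood between 11.02 and 11.20 on arrays TO_121, TO_123, TO_125 and TO_132 and between 7.96 and 8.69 on arrays TO_122, TO_124, TO_133 and TO_134. Arrays TO_143, TO_144 and TO_1B stood at 6.36, 7.31 and 7.30. TLX2 had the same pair of levels within the 8, at 12.001 or higher on the first 4 of these arrays and at 10.98 or lower on the other 4. In both genes the arrays nearest to the 3 were thus the same 4 of the 8.

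For 4 of the lower named genes another probe set of the gene was separated upward. GOLPH3, a Golgi protein of membrane traffic, had a difference of −2.50 by its brightest probe set and 2.43 by its other one. FERMT3, which activates integrins in blood cells, had −1.69 and 2.25. For ERAL1, a mitochondrial ribosome assembly factor, the values were −2.11 and 0.46, and for MTHFD1L, an enzyme of mitochondrial folate metabolism, −1.60 and 0.55. NFKB1, a subunit of the transcription factor NF-kB, had −1.42 by the chosen probe set and 1.03 and 1.05 by its other 2. Averaged over all their probe sets, the differences of FERMT3 (0.28) and NFKB1 (0.22) changed sign, while those of the other 28 named genes kept theirs in the settings tried. Of the 15 lower genes, 11 had several probe sets, and none of these 11 was separated downward by every probe set. The other 4 (COX17, MET, TLX2 and KCNQ3) had 1 probe set each.

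The other lower named genes had 1 probe set or others that overlapped. SF1, a factor that recognises the branch point in splicing, had 9 probe sets, of which 1 was separated, at −1.56. COX17, a copper chaperone of cytochrome oxidase, lay between 8.23 and 9.37 (median 8.73) and at 7.34, 7.64 and 7.46. The receptor kinase MET lay between 7.87 and 8.68 (median 8.13) and at 7.27, 7.29 and 7.15. EFCAB5, SEPTIN9 and the potassium channel KCNQ3 had differences of −0.93, −0.90 and −0.85.

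**Figure D3:**
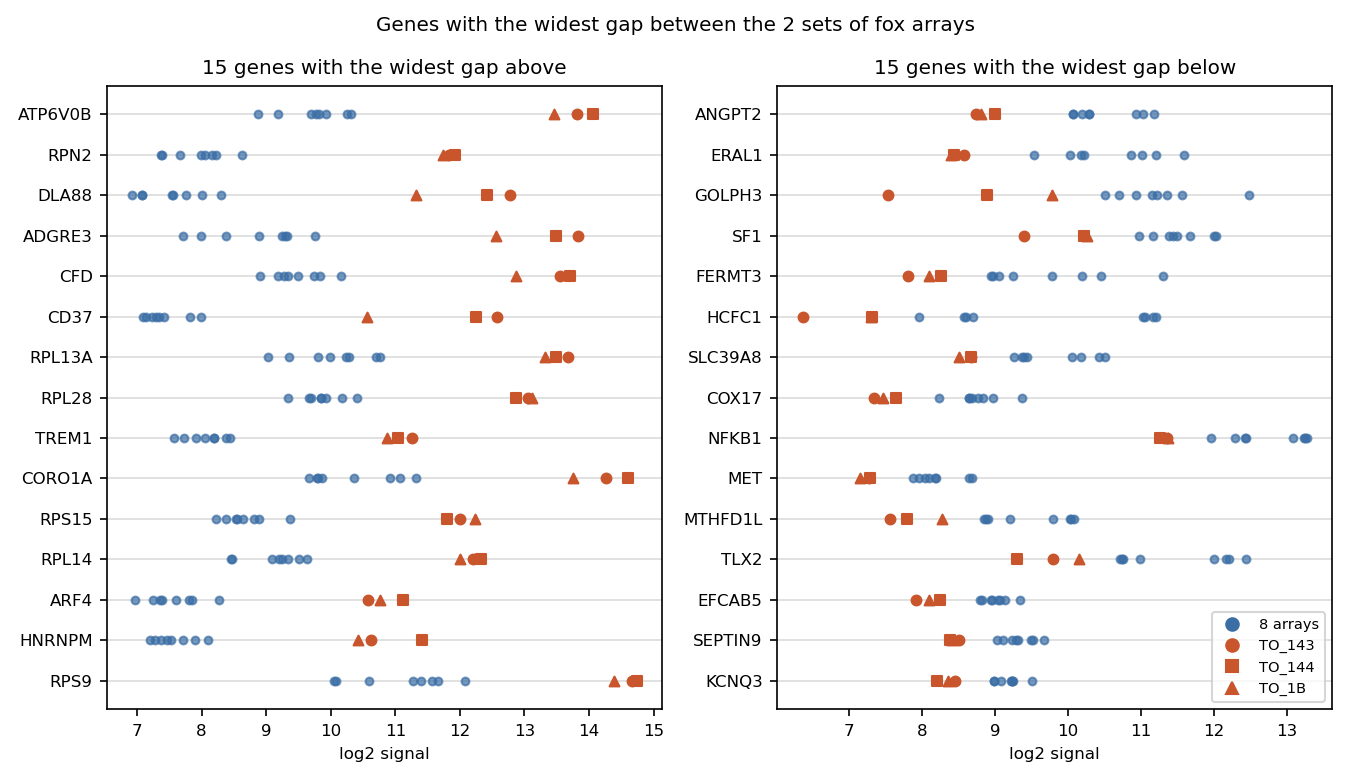
The 30 genes with the widest gap between the sets of arrays, 15 with arrays TO_143, TO_144 and TO_1B above (left) and 15 with them below (right), in log2 signal (x axis). Blue points are the 8 other fox arrays and orange marks the 3 arrays; gaps run from 2.31 to 3.14 on the left and from 0.53 to 1.07 on the right, and HCFC1 shows separate levels within the 8.

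Disagreement between probe sets was looked at over all genes with at least 2 probe sets above the median level, 3671 in number. Of these, 1504 had a probe set separated upward and 701 had one separated downward. Both occurred in 91 genes, which is 6.05% of the first and 12.98% of the second. All probe sets were separated upward in 396 genes (26.3% of the first) and downward in 54 (7.70% of the second). Probe sets of a gene lie at different places along its transcripts and can also match different variants, and their positions were not analysed here.

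Leukocyte genes were described by lists of known members. Each count below stands beside 14.1% higher and 14.7% lower over all genes, and 22.6% and 10.9% over the brighter genes. In the brightest of the 10 groups of probe sets these shares were 36.8% and 4.19%, and no list was matched to others by level. List medians depended on the processing, so a value is added as renormalized (quantile normalization again over the fox arrays) or averaged (all probe sets of a gene averaged) where it differs from the median by over 1.5 times or in sign. Leaving out genes dimmer than the median gene changed the sign for B and plasma (0.21), eosinophil and basophil (0.09) and NK genes (−0.02). It also did so for red cell membrane, erythroid regulator and immediate early genes. The mean over the list changed it in the same lists except NK. The sign of such small medians is therefore not read. Of 15 genes of mature neutrophils, 7 were higher on all 3 arrays, 1 was lower and 7 overlapped, with a median difference of 1.12 (renormalized 0.70). FFAR2, a receptor for short-chain fatty acids, lay between 7.13 and 8.51 in the 8 (median 7.66) and at 11.25, 12.50 and 9.49. PADI4, which citrullinates histones, lay between 6.45 and 7.06 (median 6.83) and at 8.86, 10.02 and 8.20. S100A9, an abundant calcium-binding protein of neutrophils, lay between 9.93 and 12.26 (median 10.52) and at 12.79 on array TO_143 and 13.68 on TO_144, while array TO_1B was inside the 8. In these genes array TO_144 was the highest and TO_1B the lowest, and MME, a surface peptidase, was the lower gene at −0.42.

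Of 15 genes of neutrophil granules, 5 were higher, 1 was lower and 9 overlapped, with a median of 0.56 (renormalized −0.04, averaged 0.19). This median was 0.25 without array TO_143 and 0.92 without TO_1B. LCN2, an iron-scavenging granule protein, lay between 7.12 and 8.38 (median 7.68) and at 9.84, 10.56 and 11.41, and here array TO_1B was the highest. LTF, lactoferrin, spread over 8.54 to 11.98 in the 8 (median 10.33) and stood at 13.27, 13.79 and 11.95, so it overlapped. BPI, which binds bacterial endotoxin, was higher at 11.63, 11.83 and 12.04 by the probe set read here, against 9.43 to 10.80, while 1 of its 3 probe sets was separated downward.

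Of 14 monocyte genes, 6 were higher, 0 lower and 8 overlapped, with a median of 0.80 (renormalized 0.28). CD163, a scavenger receptor for haemoglobin, lay between 6.72 and 8.03 (median 7.76) and at 8.79, 9.62 and 9.79. CD68, of lysosomal membranes, lay between 10.22 and 11.84 (median 10.63) and at 12.35, 12.40 and 12.40. Both were separated with all 3 arrays above the 8, and the endotoxin receptor CD14 had a difference of 1.49.

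Lymphocyte lists had small medians in spite of some separated members. Of 20 T cell genes 5 were higher, 0 lower and 15 overlapped (median 0.14, renormalized 0.06, and 0.04 without array TO_143 or 0.23 without TO_144). LCK, the kinase at the T cell receptor, lay between 6.35 and 7.10 (median 6.79) and at 8.88, 8.66 and 8.50, while CD3D overlapped (9.79 to 11.49, and 11.66, 11.46 and 11.67). Of 14 NK and cytotoxic genes 7 were higher, 0 lower and 7 overlapped (median 0.17). GZMB, a protease of cytotoxic granules, lay between 6.91 and 8.57 (median 7.45) and at 10.70, 11.48 and 9.89, and NKG7, of the same granules, was closer, with a highest value of 9.03 in the 8 and 9.07 on array TO_1B.

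B cell, eosinophil and basophil genes mostly overlapped. Of 15 B and plasma cell genes 2 were higher, 1 lower and 12 overlapped, a share of 13.3% higher that is near the 14.1% of all genes. Their median was −0.13, and −0.07 without array TO_144. MS4A1, the B cell surface protein CD20, lay between 6.53 and 7.22 and at 6.78, 6.72 and 6.45, and the B cell factor PAX5 had a difference of −0.40. The 2 higher genes were BANK1 (1.58), a B cell adaptor, and XBP1 (1.67), which also serves secretion in other cells. All 11 eosinophil and basophil genes overlapped, with a median of −0.12.

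Platelet genes were higher in 6, lower in 0 and overlapped in 8 of 14 (median 0.85). THBS1, thrombospondin of platelet granules, lay between 10.49 and 12.97 (median 12.12) and at 14.24, 14.002 and 13.97. ITGA2B, of the fibrinogen receptor, lay between 8.43 and 9.35 (median 8.78) and at 10.96, 10.06 and 9.38. THBS1 was clear of the 8 on all 3 arrays, whereas ITGA2B on array TO_1B only just exceeded array values of the 8.

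Red cell genes did not separate as groups. Of 9 haem synthesis genes 1 was higher, 0 lower and 8 overlapped, with a median of 0.32 (renormalized −0.07), and the list's share (11.1%) is below the 14.1% of all genes. ALAS2, the first enzyme of haem synthesis in red cell precursors, spread over 10.89 to 14.95 in the 8 (median 13.07) and stood at 15.05, 13.74 and 15.03. Of 15 membrane skeleton genes 3 were higher and 12 overlapped (median −0.12, renormalized −0.24, and −0.06 without array TO_144), and of 19 erythroid regulators 3 were higher, 3 lower and 13 overlapped (median −0.04, renormalized 0.04, with both signs when single arrays were left out, from −0.06 to 0.12). STOM, a membrane protein also found in leukocytes and platelets, had the largest difference of the first list (3.24), and RHAG, which is specific to red cells, had −0.45. HEMGN, an erythroid nuclear factor, was lower on all 3 arrays (−0.58), and catalase (CAT) was higher (2.22).

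Genes of antigen presentation were described by lists of their own. Of 13 genes of class I presentation 7 were higher and 1 lower, with a median of 1.23 (renormalized 0.39, averaged 0.52). Of 10 genes of class II 5 were higher and 1 lower, with a median of 0.97 (renormalized 0.54). PSMB8, a subunit of the immunoproteasome, lay between 7.97 and 9.82 (median 8.64) and at 11.98, 11.49 and 11.25. DLA-DRA, the class II alpha chain of the dog, lay between 11.95 and 13.80 (median 12.62) and at 14.12, 14.23 and 14.37. The lower genes were TAPBP (−0.43), which loads peptide on class I, and DLA-DOA (−0.59), which modulates class II loading.

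Of 16 genes of Fc receptors and their adaptors, 9 were higher, 0 lower and 7 overlapped (median 1.31, renormalized 0.61). TYROBP, an adaptor of myeloid receptors, lay between 11.13 and 12.87 (median 11.78) and at 14.61, 14.66 and 14.17. PTPN6, a phosphatase that restrains these receptors, lay between 8.15 and 9.60 (median 8.74) and at 12.94, 12.91 and 10.49, so that array TO_1B stood between the 8 and the other 2. LAT2, an adaptor, went the other way at −1.65 without being separated.

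Of 16 integrin and adhesion genes 12 were higher, 1 was lower and 3 overlapped, with a median of 1.98 (renormalized 1.25, averaged 1.16). ITGB2, the beta chain of the leukocyte integrins, lay between 8.96 and 9.90 (median 9.65) and at 13.15, 13.40 and 11.63, though 1 of its 3 probe sets was separated downward. JAML, a junction molecule of migrating leukocytes, lay between 9.09 and 11.76 (median 10.35) and at 14.41, 14.32 and 13.89, with all 3 of its probe sets upward. ICAM1, an adhesion ligand induced in inflammation, was the lower gene (−0.38).

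Of 26 actin regulators of leukocytes 11 were higher, 1 lower (FERMT3) and 14 overlapped (median 0.85, renormalized 0.23). CAPG, which caps actin filaments, lay between 8.81 and 10.13 (median 9.29) and at 13.52, 13.66 and 11.23. ARPC1B, of the ARP complex that branches actin, lay between 8.42 and 9.67 (median 8.90) and at 12.87, 13.26 and 11.50. Of the 5 subunits of the phagocyte NADPH oxidase 4 were higher and 1 overlapped (median 1.57, renormalized 0.62), among them CYBB, its catalytic subunit, between 11.82 and 13.70 (median 12.71) and at 14.27, 14.46 and 14.04. Array TO_1B was again the lowest of the 3 in each of these genes.

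Counts of Toll-like receptor and NF-kB genes were near the background of all genes or mixed. Interferon genes were higher in 29.6% and lower in 3.70%, against 14.1% and 14.7% of all genes, with a small median. Of 14 Toll-like receptor genes 2 were higher and 2 lower (median 0.17, renormalized −0.05, and 0.07 without array TO_143 or 0.33 without TO_1B). TLR2, a receptor for bacterial lipoproteins, lay between 10.15 and 11.70 (median 10.41) and at 12.51, 12.46 and 12.93, while TLR4 overlapped (10.10 to 12.40, and 12.04, 12.77 and 11.58). Of 27 interferon-stimulated genes 8 were higher, 1 lower and 18 overlapped (median 0.10, averaged 0.26, and 0.15 without array TO_133, TO_143 or TO_1B), with ISG20, a nuclease, at 2.64 and the antiviral MX2 at 2.00. Of 17 NF-kB genes 3 were higher and 4 lower (median 0.0031, from −0.01 to 0.11 when single arrays were left out): the inhibitor NFKBIA had 2.85 and the subunit REL −0.87.

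Stress and signal response lists were also uneven. Of 18 immediate early genes 3 were higher and 3 lower (median −0.07, renormalized −0.03, and −0.03 without array TO_122). DUSP1, a phosphatase of MAP kinases, lay between 9.27 and 10.93 (median 10.44) and at 12.47, 13.80 and 12.89, whereas FOS overlapped, at 9.26 to 12.51 and 11.77, 12.37 and 13.03. Of 10 glucocorticoid response genes 2 were higher and 8 overlapped (median 0.61, renormalized −0.03, averaged 0.34, and 0.29 without array TO_144 or 0.99 without TO_1B). Heat shock and chaperonin genes were higher in 11, lower in 0 and overlapped in 11 of 22 (median 1.17, renormalized 0.18), with CCT4, a chaperonin subunit, between 8.05 and 9.83 (median 8.88) and at 11.89, 11.30 and 11.24.

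Genes of core cell machinery were separated upward in large shares, and most of them are bright. The share higher was 14.1% over all genes, 22.6% over the brighter genes and 36.8% in the brightest of the 10 groups of probe sets. Of the 52 cytosolic ribosomal protein genes, 48 were brighter than the median gene, and 73.1% were higher. Of 52 cytosolic ribosomal protein genes, 38 were higher, 1 was lower and 13 overlapped (median 1.87, renormalized 0.88). RPS14 lay between 9.13 and 10.83 (median 10.06) and at 13.10, 13.66 and 13.93, and RPL37A was the lower gene (−0.40). Of 34 proteasome subunits 23 were higher and 11 overlapped (median 1.13, renormalized 0.44), with PSMB4 between 8.93 and 10.89 (median 9.86) and at 12.25, 12.47 and 12.10. Of 17 glycolysis genes 11 were higher and 6 overlapped (median 1.69, renormalized 0.63, averaged 0.93). ALDOA, an aldolase, lay between 10.66 and 11.98 (median 10.96) and at 14.26, 13.92 and 14.01.

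Mitochondrial lists had many members. Of 61 genes of the respiratory chain and ATP synthase 29 were higher, 1 lower and 31 overlapped (median 0.86, renormalized 0.06). NDUFA8, of complex I, lay between 8.36 and 9.75 (median 9.02) and at 11.44, 11.24 and 10.94, and COX7A1, a muscle form of a cytochrome oxidase subunit, was lower (−0.48). Of 72 mitochondrial ribosomal protein genes 32 were higher, 0 lower and 40 overlapped (median 0.42, renormalized 0.23). Translation initiation factors were higher in 18, lower in 3 and overlapped in 18 of 39 (median 0.95, renormalized 0.23), and spliceosomal genes were higher in 12, lower in 2 and overlapped in 15 of 29 (median 0.28, renormalized −0.04). Of 21 cell cycle genes 4 were higher, 1 lower and 16 overlapped (median 0.10, and 0.28 without array TO_144, 0.16 without TO_134 or 0.07 without TO_1B).

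Lists that bear on the exposures named in the design were small. Of 8 genes of the dioxin receptor AHR and its targets 1 was higher, 2 lower and 5 overlapped (median 0.0020, renormalized −0.06, averaged −0.09, and from −0.20 to 0.16 when single arrays were left out). The higher gene was TIPARP, a target that feeds back on AHR, at 10.56, 10.54 and 10.16 against 7.77 to 9.07. The lower genes were CYP1A2 (−0.38) and UGT1A6 (−0.47), liver enzymes of low signal here, and AHR itself overlapped at a difference of 0.11. Of 9 metallothionein and zinc genes 2 were higher, 1 lower (SLC39A8) and 6 overlapped (median 0.22, averaged 0.33), and both MT1E (0.33) and MT2A (−0.21), which bind metals, overlapped. Glutathione and NRF2 genes were higher in 9, lower in 1 and overlapped in 7 of 17 (median 0.66, renormalized 0.21). FTL, the ferritin light chain, lay between 10.27 and 12.70 (median 11.34) and at 14.48, 14.71 and 14.19, while the heavy chain FTH1 was the lower gene (−0.34).

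Markers of organs other than blood mostly overlapped. Of 22 such genes, 1 was higher, 3 lower and 18 overlapped (median −0.16, renormalized −0.08, beside −0.10 over all genes). The higher gene was SERPINA1, a protease inhibitor of liver that myeloid cells also make, at 14.72, 14.83 and 14.14 against 10.73 to 12.67. Albumin (ALB) had a difference of −0.16, the collagens COL1A1 and COL3A1 −0.28 and −0.24, and the epithelial markers EPCAM and KRT8 −0.10 and −0.11.

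**Figure D4:**
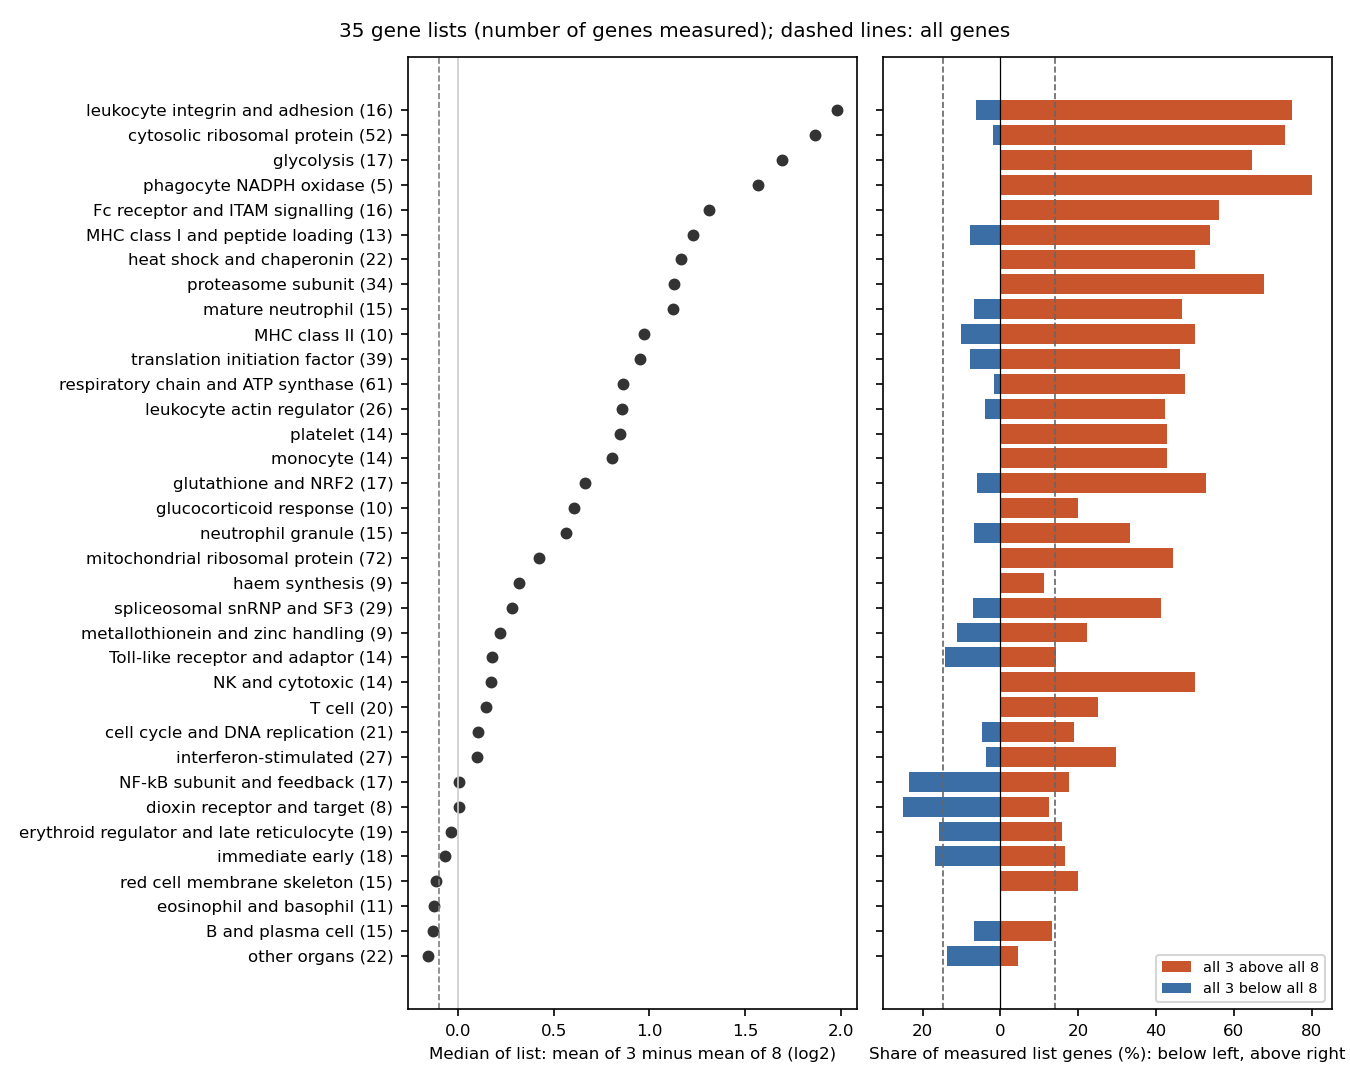
Median difference of each of 35 gene lists (left, mean of arrays TO_143, TO_144 and TO_1B minus mean of the 8, log2) and share of its measured genes with all 3 arrays above (orange, to the right) or below (blue, to the left) all 8 (right panel, percent), with the number of genes measured in brackets. Dashed lines are the values over all 15115 genes as deposited (median −0.10, 14.1% above and 14.7% below); as deposited, by the brightest probe set of each gene, integrin genes stand at 1.98 and the markers of other organs at −0.16.

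The 3 arrays were not equal among themselves. Each list was summed up per array by a score, the mean of its genes' log2 values after centring each gene on its fox mean. The score of all 3 arrays lay above all 8 in 24 of 35 lists and overlapped in 11, among them the 3 red cell lists and those of B cells and of eosinophils and basophils. Within these 24 lists array TO_1B was the lowest of the 3 in 17, array TO_143 in 6 and array TO_144 in 1. The integrin score was 1.60 on array TO_143, 1.78 on TO_144 and 0.85 on TO_1B, against −0.82 to −0.14 on the 8. The mature neutrophil score was 0.97, 1.30 and 0.34, against −0.52 to −0.03. The ribosomal score was closer over the 3, at 1.44, 1.38 and 1.15, against −1.0 to 0.03. Among these 24 lists, array TO_1B thus stood nearest to the 8 in 6 of 6 cell type lists, 6 of 8 immune lists and 4 of 7 lists of core machinery. On the poly(A) spikes it was the farthest from the 8, at 10.28 at the middle against 9.75 on TO_143 and 9.95 on TO_144.

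Single genes showed the same array as the edge of the 3. Of the 2132 higher genes, array TO_1B was the lowest of the 3 in 1044 (49.0%), TO_143 in 680 and TO_144 in 408. From the side of the 8, array TO_134 was the nearest in 867 (40.7%), TO_124 in 416 and TO_122 in 341. Of the 2223 lower genes array TO_143 was the nearest to the 8 in 922, TO_1B in 894 and TO_144 in 407. Array TO_134 also had the brightest poly(A) spikes of the 8 (8.51 at the middle) and the GAPDH middle nearest to the 3 (11.05). Its GAPDH 3′ minus middle difference was 2.69, where only TO_125 (2.62) and TO_132 (2.56) had smaller values among the 8. A link between these values and nearness to the 3 was not tested.

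**Figure D5:**
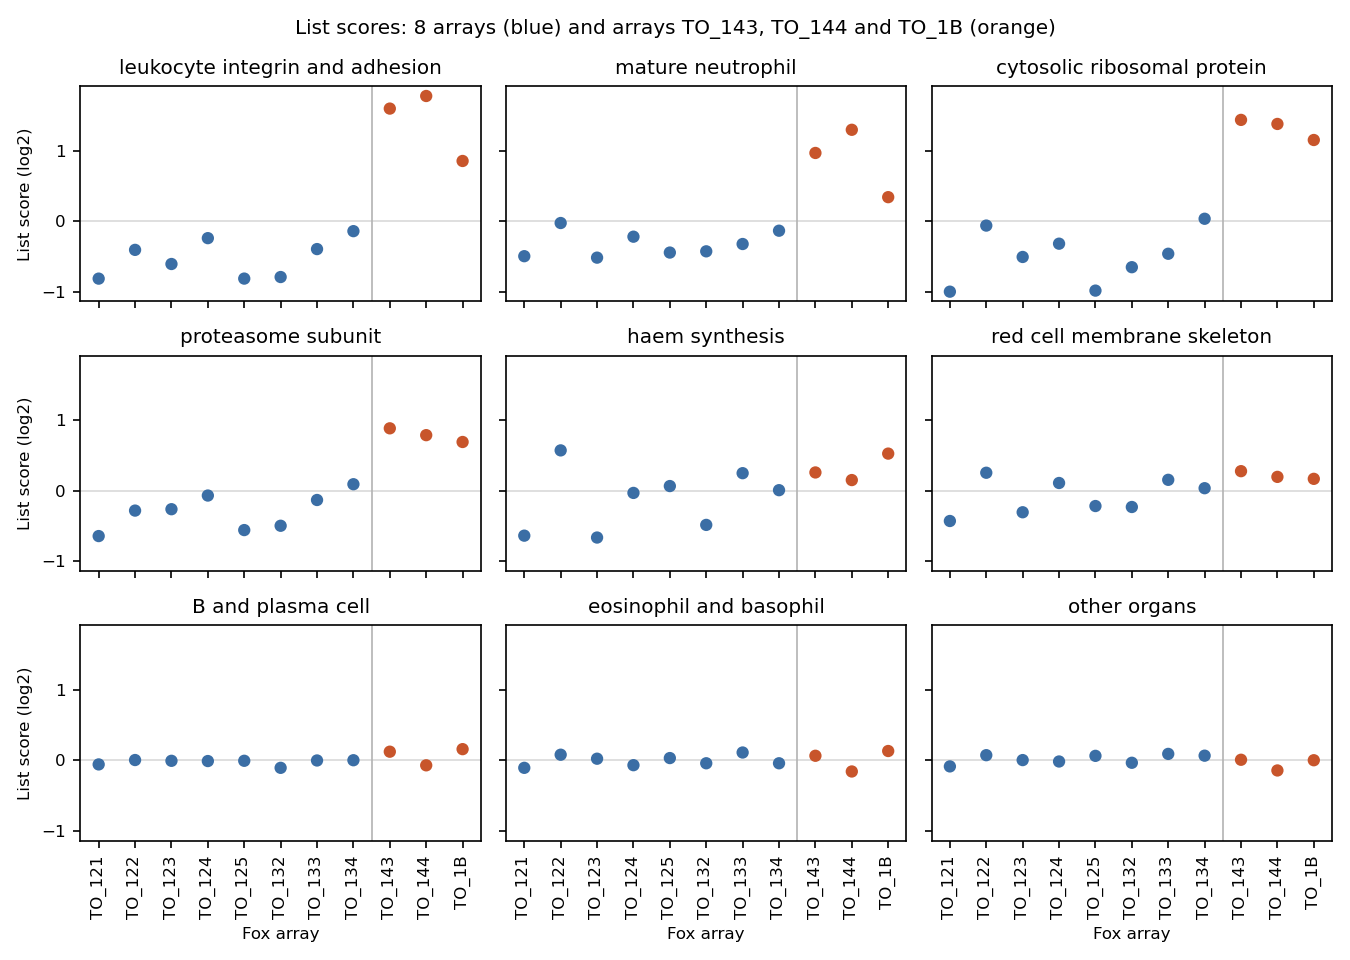
Scores of 9 gene lists by fox array (x axis; score in log2, y axis), with the 8 arrays in blue and arrays TO_143, TO_144 and TO_1B in orange. The integrin, neutrophil, ribosomal and proteasome scores of the 3 arrays stand above the 8, with array TO_1B lowest at 0.85 for integrins, while the red cell, B cell, eosinophil and basophil, and other organ scores overlap.

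Within the 8 arrays the control values were set against the genes with a test, although these 8 were themselves chosen by their GAPDH difference. For each probe set limma fitted a slope on the GAPDH 3′ minus middle difference, which spans only 2.56 to 3.19 there. After Benjamini-Hochberg adjustment limma called 0 of 42924 probe sets (0%) at a threshold of 0.05, and 4251 had an unadjusted p below it. Without any 1 of the 8 arrays limma again called 0. No probe set passed on the variation of this control among the 8. The same value chose the split, and its range within the 8 is narrow. The 0 calls therefore cannot tell whether genes follow this control, and a slope too small for 8 arrays would not have been seen.

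Other controls in its place gave calls. With the 3′ minus middle difference of the beta-actin control that overlapped between the sets, limma called 2387 probe sets (5.56%), 1785 with a positive slope and 602 with a negative one. The count was 995 without array TO_121, 1471 without TO_134 and 3634 without TO_122, and between 1616 and 2269 without any other array. Since the middle of this control was nearly level in the 8 (7.996 to 8.27), its difference followed its own 3′ signal. With the 3′ minus 5′ difference of the poly(A) spikes limma called 394 (0.918%), 371 of them positive. That count was 2108 without array TO_122, 0 without TO_134, 2 without TO_125, 72 without TO_121 or TO_124, 171 without TO_123, 177 without TO_132 and 200 without TO_133. With the mean of the spikes' middle probe sets, a choice made after seeing the data, limma called 282 (0.657%), 263 of them positive. It called 1704 without array TO_122, 190 without TO_124, 53 without TO_125, 6 without TO_132 and 0 without TO_121, TO_123, TO_133 or TO_134. Both spike counts thus changed with single arrays: they were several times higher without TO_122 and were 0 without TO_134.

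The list scores were tested in the same way within the 8 arrays by two-sided exact permutation of Pearson's r, with Benjamini-Hochberg adjustment over 35 lists. Against the GAPDH 3′ minus middle difference, 0 of 35 lists passed, by Pearson or by Spearman, and 1 had an unadjusted p under the threshold. The same control chose the split, and its narrow range within the 8 limits this test too. Correlations with it are therefore only described. The correlations ran from −0.68 to 0.87 with a median of 0.43. The highest was that of immediate early genes (r = 0.87, exact permutation p = 0.0062, adjusted p = 0.217; rho = 0.86, exact permutation p = 0.0107, adjusted p = 0.375), and without the 2 arrays farthest from the median r was 0.65. When each array was left out in turn, a check added after seeing the data, 2 lists passed without TO_134 and 0 without any other single array.

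Against the beta-actin difference 22 of 35 lists passed by Pearson and 20 by Spearman, and 18 to 23 passed by Pearson without any 1 array. The highest was the respiratory chain list (r = 0.98, exact permutation p = 9.92e-05, adjusted p = 0.000868; rho = 1.0, exact permutation p = 4.96e-05, the smallest that 8 arrays allow, adjusted p = 0.00174), and r was 0.99 without the 2 farthest arrays. NADPH oxidase, neutrophil granule, ribosomal and leukocyte actin regulator lists each had r = 0.96. These lists held leukocyte and general genes together, and red cell membrane genes passed too (r = 0.88, exact permutation adjusted p = 0.013; rho = 0.81, adjusted p = 0.0381; r = 0.85 without the 2 farthest). Of the 35 correlations 33 were positive, with a median of 0.85. The SD over all probe sets was 1.60 and 1.61 on TO_121 and TO_125, lowest on this difference. It was 1.76, 1.78 and 1.79 on TO_122, TO_134 and TO_124, the highest. Whether the passing lists differ from other bright genes in this was not tested.

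Against the spikes' middle level all 35 correlations were positive, from 0.29 to 0.92. There 4 lists passed by Pearson and 0 by Spearman: proteasome (r = 0.92), class I presentation (0.89), integrins (0.88) and T cells (0.84), with adjusted exact permutation p-values from 0.0365 to 0.0477. Their Spearman coefficients were 0.81, 0.81, 0.88 and 0.83, each with an adjusted exact permutation p of 0.0815. Without the 2 farthest arrays r was 0.79, 0.90, 0.81 and 0.70. The number passing was 22 without array TO_122, 17 without TO_133, 1 without TO_121 or TO_132 and 0 without TO_123, TO_124, TO_125 or TO_134.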

How the data were processed

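The authors deposited log2 signal values per probe set, made with RMA and Affymetrix Expression Console, both per the submitters' processing notes. Their versions, and a statement that the arrays were normalized jointly, were not given in the sources used here. Of the 43035 probe sets in the table, 111 controls were used only as controls and 42924 were tested. Symbols came from the platform's probe annotation: 29254 tested probe sets had 1 symbol, 439 several and 13231 none. Each of 15115 genes was read from its probe set with the highest mean over the 11 foxes; this choice favours probe sets that are high on any array. No detection call was used, so low values have no floor, and the number of arrays limits the precision.

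Gene lists, members and the split were chosen with earlier results of these data known. Named genes were the 15 with the widest gap on each side among genes brighter than the median gene and no placeholder symbol, and up to 4 members per list by absolute difference. List members named beyond these were chosen after their values were seen. Of the 36 lists written, the sex-linked one had no measured gene. Slopes within the 8 arrays were fitted with limma 3.58.1 (lmFit and eBayes, R 4.3.3), tested on simulated data first, and list scores by exact permutation in Python 3.11.15. The canine control array was not used. Alternatives were quantile normalization again, median centring, a filter on low means, a gap of at least 0.5, other probe set choices, other controls, and each array left out.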

Additional observations from a re-analysis of the deposited data

Results flagged for a closer look

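Within the 8 arrays, 112 values were checked for a single array far from the rest, by the gap to the nearest array over the whole range (critical value 0.526 for 8 arrays). They were the control values, the list scores and the named genes. Of these 11 stood out, and 7 of the 11 were on array TO_122. Chance alone gives about 1 in 20 for independent values, but several of these values share probe sets, so that rate is a rough guide.

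Array TO_122 was the highest for one beta-actin control, at 14.19 for its 3′ end (11.30 to 12.14 in the other 7), 5.21 for its 3′ minus middle difference (2.14 to 3.46) and 9.02 for its 3′ minus 5′ difference (6.30 to 6.82). It was also the highest for the lys spike at its 5′ end, at 4.55 (4.09 to 4.29). For the hybridisation spikes it stood at 12.22 for bioB (9.70 to 10.42), 13.54 for bioC (10.88 to 11.42) and 14.75 for bioD (12.32 to 13.12). The spikes reach the array after labelling, and this array's part in the slopes within the 8 is given by the counts without it.

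Array TO_121 was the lowest for the lys spike at its middle, 6.07 (6.75 to 7.27), and at its 3′ end, 7.41 (8.27 to 9.02). Array TO_133 was the lowest for the 3′ minus middle difference of the second GAPDH control, −0.77 (−0.49 to −0.28). Array TO_133 also had the highest score of the dioxin receptor list, 0.36 (−0.21 to −0.04).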

How the results depend on the processing

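Of probe sets, 5427 were higher and 6263 lower on the 3 arrays; with a gap of at least 0.5 these were 2091 and 57. Without probe sets of the _s_at or _x_at kind 2948 were higher, and with the filter on low means 2718 were lower; both settings test fewer probe sets. Of genes, 1353 were higher after quantile normalization again, against 2132, and 1271 of these were among the 2132; the cause was not tested. With a gap of at least 0.5, 824 genes were higher and 18 lower, and with the filter on low means 826 were lower. Without any 1 of the 11 arrays, 5495 to 6845 probe sets were higher and 6522 to 8994 lower, and 2152 to 2645 genes were higher and 2292 to 3231 lower; leaving out an array can only add separated features. Within the 8 arrays, limma called 0 probe sets on the GAPDH difference in each rescaling, filter and left-out array. It called 2387 and 803 (an added choice) on the beta-actin differences, 394 on the spikes' 3′ minus 5′ difference and 282 on their middle level (added). List scores passed in 0 of 35 lists on GAPDH (0 to 2 without any 1 array, an added choice), in 22 and 2 on the beta-actin differences (18 to 23 for the first) and in 4 on the spikes' middle level (0 to 22). Of the list medians, 22 of 35 kept their sign in all settings and 13 did not; values moved by more than the spread between arrays in 75 of 560 list settings. No paired analysis was possible because the titles carry no replicate numbers shared by the sets of arrays.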
